A study of Oryza sativa with 3 samples.

Results

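The genes described here are regulators of shoot meristems, leaf form and the leaf epidermis in rice, chosen by name: every gene with a symbol or synonym made of HOX, ROC, WOX, OSH, HOS, YAB, SPL, GRF, PCF or TCP and a number, or FON1, and with at least 1 probe set annotated to that gene alone. The rule found 87 genes with 107 probe sets, of 17905 genes with 22436 such probe sets. It used no measured value. Of the 87 genes, 84 belong to the families below, no TCP name was matched, and 3 only share a name with a family. The samples are leaves of the early-flowering japonica rice Kitaake, from plants kept 6 weeks in a greenhouse and grown at the same time. There was 1 group of 3 replicates with 1 Affymetrix rice array each, and no mutant, treatment or second time, so nothing can be tested between groups. How many plants a replicate pooled is not given in the labels, so the spread between replicates may be technical.

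Class I KNOX homeobox genes keep cells of the shoot meristem undifferentiated and are switched off where a leaf begins, while class II KNOX genes are active in differentiating organs. WOX homeobox genes act in meristems, in vascular and root initials and in lateral organs, and FON1 is a receptor kinase, not a transcription factor, that limits the size of the flower meristem. YABBY and HD-Zip III proteins take part in the pattern of the leaf blade and its veins, HD-Zip I and II proteins in growth under light, hormone and water signals, and HD-Zip IV proteins (ROC) in the epidermis. SPL factors time the change from juvenile to adult shoots, many of them under the microRNA miR156. GRF factors promote cell division in young leaves under miR396, and TCP factors (PCF) promote or restrain cell proliferation.

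Values are log2 signals per probe set, given as mean ± SD over n = 3 arrays where they are not listed by array. The 3 arrays limit the precision of every value. A gene with several probe sets took the one not marked as shared with other transcripts, and of those the one with the highest mean. HOX8, HOX11, HOX15, HOX17, HOX21, ROC7 and ROC8 had only a probe set marked as shared. Probes differ in how strongly they bind, so signals of different genes are not ranked as amounts of RNA. A gene is called above background where its signal exceeded, on each array, the 95th percentile of that array's 64 reporter probe sets, which target genes foreign to rice. These bounds were 5.64, 5.60 and 5.77 for replicates 1, 2 and 3. In whole leaves, fewer cells that use a gene and less RNA per cell cannot be told apart.

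Of the 87 genes, 50 (57.5%) were above background on every array, against 74.3% of all 17905 genes. A further 33 were below the bound on every array, and 4 (HOX17, HOX19, GRF8 and PCF8) were above it on 1 or 2 arrays. The median of the gene means was 6.02 for the 87 genes and 8.11 for all genes. By probe set, 60 of 107 were above background, against 47.1% of all 57194 probe sets, most of which are not annotated to a single gene. Among the meristem genes (class I KNOX, WOX and FON1) 3 of 13 were above background, and among the other families 45 of 71. All 7 mature-leaf marker genes found were above background, with a median of 14.10. Of the 5 markers of dividing cells, the 4 B-type cyclins were below the bound on every array, while PCNA, a replication clamp, had 8.87 ± 0.08.

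**Figure D1:**
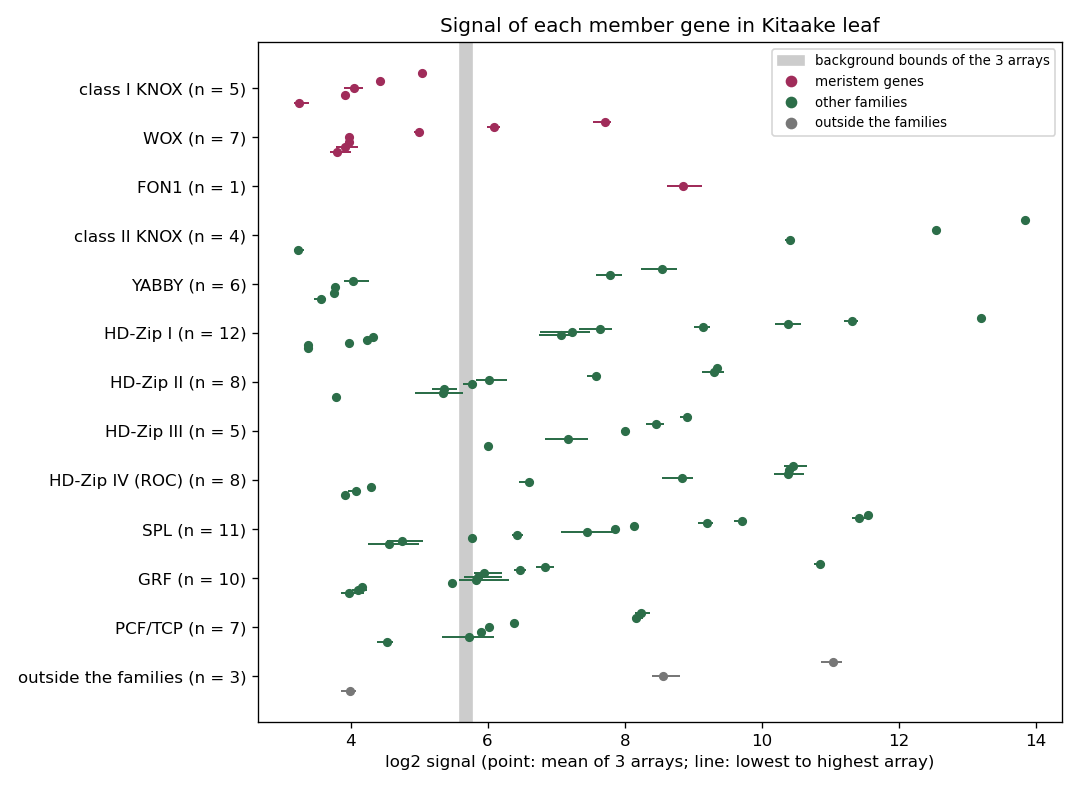
Mean log2 signal (horizontal axis) of each of the 87 genes, by family down the page, with a line from the lowest to the highest of the 3 arrays and the background bounds of 5.60 to 5.77 as a grey band. All 5 class I KNOX genes lie left of the band, and all 5 HD-Zip III genes lie right of it.

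None of the 5 class I KNOX genes was above background on any array. OSH1, which is needed to form and keep the shoot meristem, had 3.19, 3.19 and 3.37 in replicates 1, 2 and 3. Its other probe set had 3.98, 3.98 and 4.24, so both probe sets lay well under the bounds. OSH3 had 5.04 on all 3 arrays and OSH6 had 3.92. OSH43 had 4.42 on all 3 arrays with the probe set taken and 5.57 with another that may match related transcripts, both below every bound. OSH71 had 4.17, 3.92 and 4.05. OSH1 and OSH3 lie close together on chromosome 3, with 1 protein-coding gene between them in the RefSeq annotation, and neither gave signal above background.

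Of the 4 class II KNOX genes, 3 were above background. HOS59 had 13.83, 13.83 and 13.85. HOS58 had 12.54, 12.54 and 12.53. OSH45 had 10.43, 10.44 and 10.35, and no array of these 3 genes was more than 0.09 from another. HOS66 had 3.31, 3.18 and 3.18 and was below the bound on every array. The name OSH therefore covers genes on both sides of the background: 5 of class I below it and OSH45, of class II, above it.

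Of the 7 WOX genes, 2 were above background. WOX8, which the annotation also calls OsWOX13, had 7.79, 7.79 and 7.55. WOX4, which acts in the shoot meristem and the vascular tissue, had 6.16, 6.13 and 6.01. WOX4 lay close to the bounds and was not above the 99th percentile of the reporters, a stricter bound that left 2 of the 13 meristem genes above background. WOX9 (QHB), a gene of the quiescent centre of the root tip, had 4.95, 5.01 and 5.04. WOX11, a regulator of crown root emergence, had 3.98 on all 3 arrays, and so had WOX6. These genes, WOX10 (3.87, 3.80 and 4.10) and WOX7 (3.71, 3.71 and 3.99) were below the bound on every array.

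FON1, the CLAVATA1-like receptor kinase, was the other meristem gene above background. It had 9.11, 8.79 and 8.62 in replicates 1, 2 and 3, so replicate 1 was 1.40-fold above replicate 3. Of all genes with means from 7.5 to 9, 10.9% ranged at least as far over the arrays. Markers of young inflorescences and flowers, measured on the same arrays, were above background in 3 of 10 genes: MADS1 with 8.39 ± 0.15, MADS16 with 8.11 ± 0.15 and MADS4 with 6.61 ± 0.11. The log2 of the summed signal of the 10 markers ranged from 9.58 to 9.79 over the arrays. The part of flower tissue in the FON1 signal was not tested.

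Of the 6 YABBY genes, 2 were above background. YAB2 had 8.74, 8.65 and 8.25, and was lowest in replicate 3. YAB6 had 7.95, 7.80 and 7.60, also lowest in replicate 3, an array in which 81.7% of all genes with means from 7.5 to 9 lay below the average of the others. YAB4, a gene of the developing veins, had 3.92, 3.92 and 4.26. YAB5 had 3.59, 3.48 and 3.63, and YAB7 had 3.77, 3.76 and 3.76, all below the bounds. YAB1 had 3.77 on all 3 arrays with the probe set taken, while its other probe set, marked as shared with other transcripts, had 6.80, 6.65 and 7.30. Whether YAB1 was above background therefore depends on the probe set. DL, a YABBY gene outside the name rule that is needed for the midrib, had 4.38 on all 3 arrays.

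All 5 HD-Zip III genes, whose proteins act on the upper side of the leaf and in the veins, were above background. HOX10 had 8.95, 8.97 and 8.81 with the probe set taken, while its other probe set had 4.98 on all 3 arrays, below every bound. HOX33 had 8.48, 8.55 and 8.32. HOX9 had 8.01, 8.01 and 7.97. HOX29 had 6.01 on all 3 arrays and was no longer above background with the 99th percentile bound. HOX32, a gene linked to leaf rolling, had 7.45, 7.22 and 6.86, a range of 1.51-fold. In 4 of the 5 genes, all but HOX29, replicate 3 was the lowest array, as it was in 7993 of all 13299 genes above background.

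Of the 8 HD-Zip IV genes, 5 were above background. ROC1, known from the outermost cell layer, had 10.36, 10.60 and 10.19. ROC2 had 10.33, 10.65 and 10.38. ROC5, which limits the number and size of the bulliform cells that roll the leaf, had 10.38, 10.43 and 10.38. These 3 genes were highest in replicate 2, by 0.41 (ROC1), 0.31 (ROC2) and 0.05 (ROC5) over the lowest array. ROC6 had 8.98, 8.98 and 8.55 with the probe set taken, while its other probe set, marked as shared with other transcripts, had 4.78 on all arrays. ROC4 had 6.66, 6.66 and 6.47, and like ROC6 was lowest in replicate 3. ROC3, ROC7 and ROC8 had means of 4.08, 3.92 and 4.29 and were below the bound on every array.

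HD-Zip I genes fell into 7 above background and 5 below it on every array. HOX16 had 13.20 on all 3 arrays with the probe set taken, while its lowest probe set had 3.39. HOX4 had 11.33, 11.39 and 11.21. HOX22, a gene of the response to drought and abscisic acid, had 10.37, 10.56 and 10.20. HOX24, which responds to drought as well, had 3.98 on all 3 arrays, so these related genes lay on opposite sides of the bounds. HOX20 had 7.49, 7.43 and 6.78, with replicate 3 lower by up to 1.63-fold. Its second probe set showed the same direction with 7.78, 7.90 and 7.31. HOX13 had 7.23, 7.23 and 6.76, and HOX6 had 7.77, 7.80 and 7.35, both lowest in replicate 3. HOX5 had a mean of 9.14, and 3.93 with its other probe set. HOX8, HOX12, HOX14 and HOX21 had means of 4.33, 3.37, 3.39 and 4.24. HOX12 and HOX14 are known for roles in the panicle.

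Of the 8 HD-Zip II genes, 4 were above background. HOX1, a gene known from developing veins, had 9.34 ± 0.00. HOX15 had 9.14, 9.32 and 9.43 and was highest in replicate 3, where 15.2% of all genes with means from 9 to 11 exceeded the average of the other arrays. The only probe set of HOX15 is marked as shared with other transcripts. HOX7 had 7.64, 7.64 and 7.46, and its other probe set had 7.34, 7.33 and 6.95, also lowest in replicate 3. HOX2 had 6.27, 5.84 and 5.93. HOX28, the direct neighbour of HOX2 on chromosome 6, had 3.79 ± 0.03, below the bound on every array. HOX17 had 5.48, 5.63 and 4.96 and passed its bound on replicate 2 alone. HOX19, at 5.77 ± 0.10, passed on 2 arrays with the probe set taken, while another that may match related transcripts had 6.91 on all 3 arrays, so its call depends on the probe set. HOX11, with 5.54, 5.36 and 5.20, passed on none.

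Of the 11 SPL genes with an SBP box, 9 were above background: 4 of the 6 that miR156 is known to target and all 5 others. Among the others, SPL15 had 11.54, 11.60 and 11.52. SPL9 had 11.50, 11.45 and 11.32. SPL1 and SPL6 had means of 9.71 and 9.20, and all 4 of these genes varied by at most 0.19 between arrays. SPL8, known as LIGULELESS1 because the ligule and auricle at the leaf base need it, had 7.08, 7.87 and 7.38. Its range of 1.72-fold, with replicate 2 the highest, was the widest of the 87 genes. Of all genes with means from 6 to 7.5, 4.32% ranged at least as far.

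Among the miR156 targets, SPL12 had 8.13 on all 3 arrays. SPL2 and SPL4 had means of 7.86 and 6.42, and SPL7 had 5.75, 5.75 and 5.82, just above the bounds. The lowest probe set of SPL4 had a mean of 3.55, below the bounds. SPL14, known as IPA1, which lowers tiller number and adds panicle branches, had 4.42, 4.26 and 4.98. SPL16, which widens the grain, had 4.68, 4.54 and 5.05. SPL14 and SPL16 were below the bound on every array and highest in replicate 3. Replicate 3 exceeded the average of the other arrays in 4 of the 6 targets and in 0 of the 5 others. The means ran from 4.56 to 8.13 for the targets and from 7.45 to 11.55 for the others. After the median of all genes of like signal was taken off, replicate 3 was above 0 in 6 of the 6 targets (0.07 to 0.64) and in 0 of the 5 others (-0.12 to -0.03). Of all 17905 genes, 8647 were above 0 and 7750 below it in replicate 3 after this step. Before this step SPL12 was equal on all arrays and SPL2 was lower in replicate 3 (-0.03). Both came to lie above 0 because the median taken off was -0.15. The PCF genes, split by class, had replicate 3 above 0 in 2 of 3 class I and 3 of 4 class II genes. Both splits were made with the values known, and the difference between the SPL groups was not tested.

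Of the 10 GRF genes, 5 were above background. GRF11 had 10.86, 10.91 and 10.78. GRF5 had 6.95, 6.86 and 6.72. GRF1, the GRF gene first described in rice stems, had 6.54, 6.40 and 6.46, with its arrays within 0.14 of each other. GRF4, known from grain size, had 5.82, 5.82 and 6.19. GRF6 had 5.73, 5.67 and 6.19. GRF8 had 5.60, 5.60 and 6.30, above the bound in replicate 3 alone. In replicate 2 GRF8 and the bound both had 5.59633, so the gene did not exceed it there. GRF4, GRF6 and GRF8 were thus highest in replicate 3, as were the dim GRF7 (3.98 ± 0.17) and GRF12 (4.11 ± 0.10). GRF3 and GRF10 had 5.47 and 4.16 on all 3 arrays.

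Of the 7 PCF genes, 5 were above background. PCF1, a class I TCP factor found by its binding to the PCNA promoter, had 8.35, 8.21 and 8.16 with the probe set taken. Its other probe set had 5.94 on all 3 arrays, above the bounds but under the 99th percentile of the reporters. PCF2, also found by its binding to that promoter, had 8.13, 8.25 and 8.12. PCF3, of the same class, had 4.58, 4.60 and 4.40, below the bound on every array. In class II, PCF7, PCF6 and PCF5 had 6.39 ± 0.02, 6.02 ± 0.01 and 5.91 ± 0.03, all above the bounds. PCF8, also of class II, had 5.35, 5.75 and 6.07, above the bound on replicates 2 and 3. Its other probe set, which may match related transcripts, had 8.13, 8.52 and 8.74, with the arrays in the same order.

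Another 3 genes matched the rule by a shared name and are counted in no family. SPL7 is also a synonym of HSFA4D, a heat stress factor, which had 8.41, 8.80 and 8.47. SPL18 is a synonym of OsAT1, an acyltransferase, which had 3.88, 4.03 and 4.06. A locus that carries only the name SPL11 was taken as the spotted leaf ubiquitin ligase, since the SBP-box SPL11 is a separate locus, and it had 11.11, 11.15 and 10.88. HSFA4D and the spotted leaf gene were above background and OsAT1 was not. Without these 3, 48 of 84 genes were above background. For 10 further genes that the rule names (HOX3, OSH10, OSH15, ROC9, SPL5, SPL10, SPL11, SPL13, WOX5 and YAB3) no probe set is annotated to the gene alone, and they were not analysed here.

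None of the 107 probe sets ranged over 2-fold or more between arrays, against 0.972% of all probe sets. A range of at least 0.5 on the log2 scale, a threshold chosen after the values were seen, was reached by 9 of the 87 genes (10.3%), against 8.53% of all genes. They were SPL8, PCF8, SPL14, HOX20, GRF8, HOX17, HOX32, GRF6 and SPL16, of which 4 were above background on every array. Replicate 3 was highest in 5 of them (PCF8, SPL14, GRF8, GRF6 and SPL16) and lowest in 3 (HOX20, HOX17 and HOX32). The median SD of the 107 probe sets was 0.09, against 0.07 for all probe sets, most of which are not annotated to a single gene. By gene, it was 0.090 for the 87 genes and 0.084 for all genes.

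**Figure D2:**
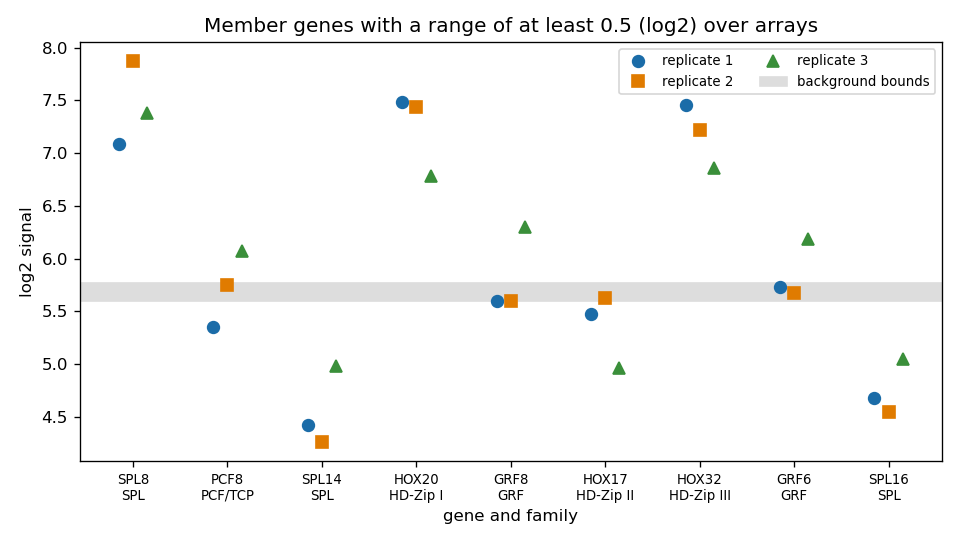
Log2 signal (vertical axis) on each of the 3 arrays for the 9 genes with a range of at least 0.5, with the family under the name and the background bounds as a grey band. SPL14, SPL16, GRF6, GRF8 and PCF8 are highest in replicate 3, and HOX20, HOX17 and HOX32 are lowest there.

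Replicate 3 stood apart over all genes, and the direction depended on signal. Over all probe sets its lower quartile was 4.30, against 4.25 in both other arrays, and its upper quartile 7.80, against 7.91 and 7.93. Among the 50 genes above background, replicate 3 was under the average of the other arrays in 39 and over it in 8, with a median difference of -0.12. Of all 13299 genes above background 72.6% were under it and 18.6% over it, with a median of -0.09. Among the 37 genes not above background on every array, replicate 3 was over the average in 17 and under it in 7, against 43.9% and 25.9% of all such genes. The shares for these regulators lie near those of all genes.

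Of the 33 HD-Zip genes, replicate 3 was under the average of the others in 22, over it in 4 and equal in 7, with a median difference of -0.12. Of all 17905 genes, 10846 were under it, 4502 over it and 2557 equal, with a median of -0.04. After the median of all genes of like signal was taken off, the HD-Zip median was -0.03. Of the 10 GRF genes, replicate 3 was over the average in 5, under it in 3 and equal in 2, with a median of 0.08, and 0.11 after the same step. The median of the GRF means was 5.85. Replicate 3 was over the average in 46.1% of all genes with means below 4.5 and in 41.9% of those from 4.5 to 6. The difference between the families was not tested, nor was the part of the array-wide shift in single genes.

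**Figure D3:**
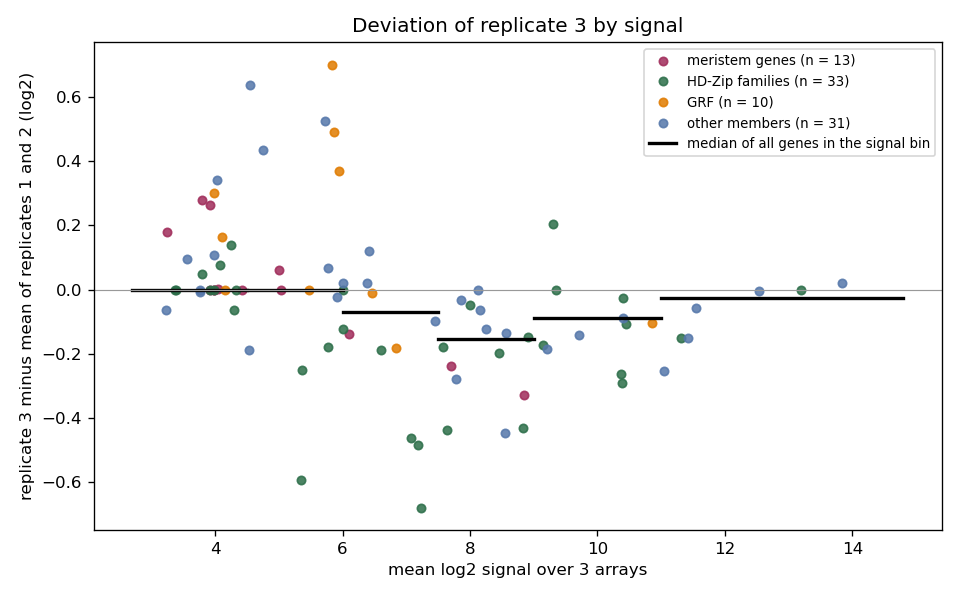
Replicate 3 minus the mean of replicates 1 and 2 (log2, vertical axis) against mean log2 signal (horizontal axis) for the 87 genes, with black lines for the median of all genes in each of 6 signal bins. The black lines sit at 0 for means below 6 and reach -0.15 for means from 7.5 to 9.

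Of the 87 genes, 16 had more than 1 probe set, and in 8 of these some probe sets were above background on every array and others were not. The mean signals of the probe sets of HOX16 ran from 3.39 to 13.20, those of HOX5 from 3.93 to 9.14 and those of SPL4 from 3.55 to 8.43. ROC6 ran from 4.78 to 8.84, HOX10 from 4.98 to 8.91, YAB1 from 3.77 to 6.91, and PCF8 from 5.72 to 8.46. Those of PCF1 ran from 5.94 to 8.24, all above background. For SPL4, YAB1 and PCF8 the probe set with the highest signal may match related transcripts, so their gene values came from a dimmer one. The same held for HOX19, HOX20, OSH43, OSH1 and GRF10. In HOX19 the 3 probe sets ran from 5.47 to 6.91.

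**Figure D4:**
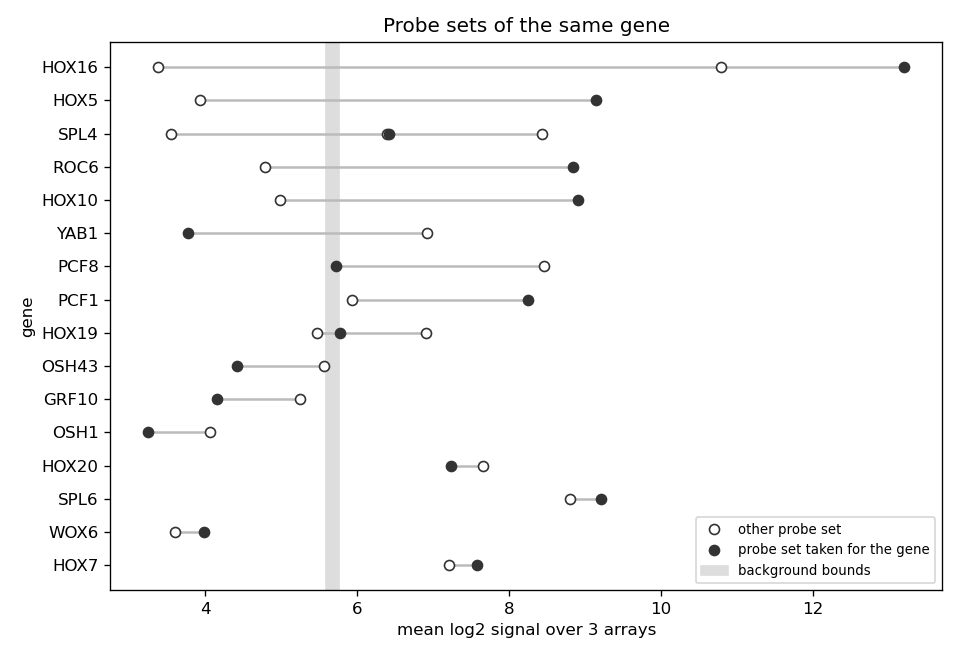
Mean log2 signal over 3 arrays (horizontal axis) of every probe set of the 16 genes with several, by gene down the page, with filled points for the probe set taken and open points for the others. The grey band shows the background bounds, and the probe sets of HOX16, HOX5, SPL4, ROC6, HOX10, YAB1 and HOX19 lie on both sides of it.

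Other regulators of the same processes were sought by a list of 68 names. Of these regulators 17 were found, beside 3 unrelated genes that share a name with the list and were left out. Of the 17, 11 were above background on every array, against 74.3% of all genes, and none ranged over 2-fold or more. The strigolactone receptor gene D14, which restrains tillering, had 10.81, 11.06 and 10.91. The calpain gene ADL1, needed for leaf polarity, had 10.64, 10.54 and 10.46. The leaf-width gene NAL1 had 8.92, 8.81 and 8.72, and the growth repressor SLR1 had 8.82, 8.73 and 8.33. AS2 and RS2, whose relatives in Arabidopsis and maize keep KNOX genes off in leaves, had 5.96 ± 0.04 and 6.17 ± 0.00, just above the bounds. SHO1 and SHL2, of a small RNA pathway that the shoot meristem needs to form, had 8.73 ± 0.06 and 7.53 ± 0.32. D3, D17 and SCR1 had 6.66 ± 0.04, 6.27 ± 0.04 and 5.96 ± 0.05. The genes below the bound on every array were LAX1 (4.49 ± 0.16), which starts axillary meristems, RFL (5.08 ± 0.00), DL, PLA3 (2.73 ± 0.01), MKB3 (4.78 ± 0.00), a partner of GRF proteins, and SHR1 (4.03 ± 0.08).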

How the data were processed

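Leaf RNA of 3 Kitaake replicates was hybridised to 1 Affymetrix rice array each, per the labels' protocols. The authors deposited 1 log2 signal for each probe set and array, made with RMA per the submitters' processing notes. Its version and settings: not given in the sources used here. The arrays share a median of 5.63 while their quartiles differ, so the kind of normalization between arrays cannot be told from these values. Of 57381 probe sets, 187 controls were set aside. Gene names come from the platform annotation and, by gene identifier, from RefSeq (assembly ASM3414082v1, names and gene order alone). The planned protein features were not computed.

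The members and lists were chosen with earlier results of these data known. Every gene of the KNOX, WOX and YABBY families and FON1 is named, and of each other family the 3 with the highest mean and the 3 with the widest range; other members are named with their mean or as part of a count. Families follow published classes, and the split of SPL and PCF genes was added after the values were seen. The 6 signal bins, also added, have edges of 4.5, 6, 7.5, 9 and 11. Counting was tested on simulated data. Python 3.11.15, numpy 2.4.6, pandas 2.3.3 and matplotlib 3.10.9 were used.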

Additional observations from a re-analysis of the deposited data

How the results depend on the processing

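The number of genes above background on every array was 50, and ran from 50 to 51 when 1 replicate was left out; it was 42 with the 99th percentile bound, where WOX4, HOX2, HOX29, SPL7, GRF4, GRF6, PCF5 and PCF6 no longer passed. The count of meristem genes was 3 under every alternative run but that bound, which gave 2. Without probe sets marked as shared with other transcripts, 49 genes were above background. No gene or probe set ranged over 2-fold or more under any alternative run. The median SD of the probe sets, with 1 replicate left out, ran from 0.0137 (without replicate 3) to 0.0940 (without replicate 2), and was 0.101 over those above background; 46 of 107 (43.0%) were equal between replicates 1 and 2 to within 1e-09, against 47.7% of all probe sets. The median difference of replicate 3 from the others was -0.01 over all 87 genes and -0.12 over those above background. As means over probe sets, HOX16, ROC6, HOX10 and PCF1 had 9.12, 6.81, 6.95 and 7.09, and YAB1 and PCF8 had 5.34 and 7.09. Allowing a letter after the number added HOX1A and a histone gene. No paired analysis was possible because there is only 1 group. Arrays give no detection calls here, so a signal near the bounds could not be told from background.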

Other observations

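Many values recur. On replicates 1, 2 and 3 the 57381 probe sets held 21291, 21192 and 30639 distinct values, and 68, 63 and 46 of the 107 probe sets of these regulators (63.6%, 58.9% and 43.0%) had, to 6 decimals, the value of at least 1 other probe set on the array, against 66.2%, 66.5% and 49.7% of all probe sets. WOX6, WOX11 and HOX24 had 3.98 on every array, and OSH6, ROC7 and the floral gene MADS7 had 3.92. Of the 107 probe sets, 24 (22.4%) did not differ between the 3 arrays by 1e-09 or more, against 24.2% of all probe sets, so an SD of 0.00 is not a measure of precision.

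Markers of tissues other than the leaf blade were partly above background. Of 3 root markers 2 were, Lsi1 with 9.10 ± 0.15 and IRT1 with 7.96 ± 0.47, and of 5 anther markers only MSP1, with 8.26 ± 0.19.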
